A study of Mus musculus with 9 samples.

Results

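Memory T cells specific for lymphocytic choriomeningitis virus (LCMV) were compared by lineage, to describe the genes that set CD4 memory cells apart from CD8 memory cells whether or not the CD4 cells still carried Thpok. Members were the genes whose level in CPM, read counts scaled to library size with TMM factors, lay on 1 side of all 3 CD8 libraries in all 6 CD4 libraries. Of 26449 entries with a count, 2612 met that rule: 1332 were higher and 1280 lower in the CD4 libraries. The RNA came from 3 groups of 3 libraries, each from splenic T cells of mice infected with LCMV Arm 30 days earlier. CD4 control cells were GP66:I-Ab+, so they bound a class II tetramer carrying a viral glycoprotein peptide, and their mice were Ox40-Cre-. CD4 ThpokAD cells were also GP66:I-Ab+ and came from Ox40-Cre+ Thpokfl/fl mice, in which Cre is driven from the locus of the activation-induced receptor Ox40 and so acts on Thpok only in cells that switch that locus on. CD8 control cells were GP33:H-2Db+, so they bound a class I tetramer with another peptide of the same virus, and their mice were Ox40-Cre-. Strain, age, sex and the Thpok alleles of the Ox40-Cre- mice are not given in the labels. Lineage, peptide, tetramer class and sort gate went together and cannot be told apart in any contrast with CD8 cells, and Cre was present only in the ThpokAD mice.

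CD4 and CD8 T cells recognise peptides on MHC class II and class I molecules, and take on helper and cytotoxic programmes respectively. Thpok, a zinc finger repressor encoded by Zbtb7b, commits thymocytes to the CD4 lineage and restrains Runx3-driven cytotoxic genes. In mature CD4 cells helper functions rest on CD40 ligand, costimulatory receptors and cytokines, while CD8 cells carry the CD8 coreceptor, granzymes and receptors shared with natural killer (NK) cells.

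Libraries held 16664474 to 38981516 counts, the deepest being CD8 control replicate 3. Principal component 1 (28.95% of the variance) placed all CD4 libraries on one side (-68.6 to -26.2) and the CD8 libraries on the other, where CD8 control replicate 2 (131) stood beyond replicates 1 and 3 (86.4 and 82.9). Zbtb7b measured 38.5, 47.6 and 48.9 CPM in CD4 control, 0.698, 0.875 and 0.849 CPM in CD4 ThpokAD and 24.04, 19.4 and 18.8 CPM in CD8 control. The targeted gene thus went with the label in all 9 libraries. Cd3e, Lck and the other T cell identity genes were high in every library, with Lck at 2211 ± 104, 2436 ± 36.4 and 2198 ± 59.2 CPM (mean ± SD, n = 3) in CD4 control, CD4 ThpokAD and CD8 control. Of 12 B cell markers 1, Cd22, was called higher in the CD4 cells (in 2 of 9 fits that left out 1 library). Their summed level was 516 to 703, 277 to 488 and 254 to 794 CPM in the same order of groups, most of it Ighm. Of 14 myeloid markers 2 were called higher, with summed levels of 231 to 404, 415 to 578 and 161 to 426 CPM. Of 4 tested plasma cell markers 1, Irf4, was called higher, with sums of 144 to 178, 120.2 to 208 and 5.48 to 292 CPM, and Jchain reached 286 CPM in CD8 control replicate 2. Of 9 tested dendritic cell and MHC class II markers 4 were called higher, with sums of 817 to 1556, 814 to 1743 and 227 to 363 CPM, while Siglech was at 0 in every CD4 library. Those 4, H2-Aa, H2-Ab1, H2-Eb1 and Cd74, are themselves members, although H2-Eb1 lost its call without CD8 control replicate 3 (adjusted p = 0.0529): H2-Ab1 measured 151, 382 and 199.8 CPM in CD4 control, 343, 403 and 179.8 CPM in CD4 ThpokAD and 59.8, 60.9 and 47.8 CPM in CD8 control. Of 9 tested NK markers 4 were called lower, with sums of 22.9 to 29.8, 146 to 212 and 223 to 249 CPM, and Ncr1, Klra3, Klra4 and Klra8 were at 0 in every CD4 control library. Called by edgeR were 0 of 4 tested gamma-delta and NKT markers (1 lower at an unadjusted p under 0.05, 0 by DESeq2) and 0 of 5 erythroid markers (0 unadjusted and 0 by DESeq2). The part of other cell types in the results was not tested. In bulk RNA, fewer cells of a kind and less RNA per cell cannot be told apart.

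The first comparison asked how large the shared difference between CD4 and CD8 memory cells was, with the mean of the log2 levels of both CD4 groups set against CD8 control. Genes with a Benjamini-Hochberg adjusted p under 0.05 in edgeR's quasi-likelihood test were called. Of the 2612 members, 2473 passed the filter on low counts (1291 higher and 1182 lower), 41 and 98 did not. Among all 15738 tested genes, 15.7% did not overlap (8.2% higher and 7.51% lower), 6.16% were called higher in CD4 cells and 4.98% lower. Both conditions held for 862 genes higher in CD4 cells, which is 5.48% of those tested, and for 613 lower, which is 3.9%. The higher side held the larger differences: 604 of 862 were at least 2-fold higher and 200 at least 8-fold, with a median log2 fold change of 1.54, whereas 293 of 613 were at least 2-fold lower and 29 at least 8-fold, with a median of -0.97. Each CD4 group was also set against CD8 control alone, and these contrasts share the CD8 libraries: of all tested genes 6.55% were called higher and 5.13% lower in CD4 control, and 4.63% and 1.91% (6.54% in all) in CD4 ThpokAD. A further 107 called genes on the higher side and 171 on the lower side had libraries that overlapped. No label ties the replicates to separate animals, so p-values reflect only how these samples vary, in part perhaps for technical reasons. The lower side depended more on single libraries: without CD8 control replicate 2 or replicate 3, the called genes without overlap numbered 370 and 359 in place of 613.

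**Figure D1:**
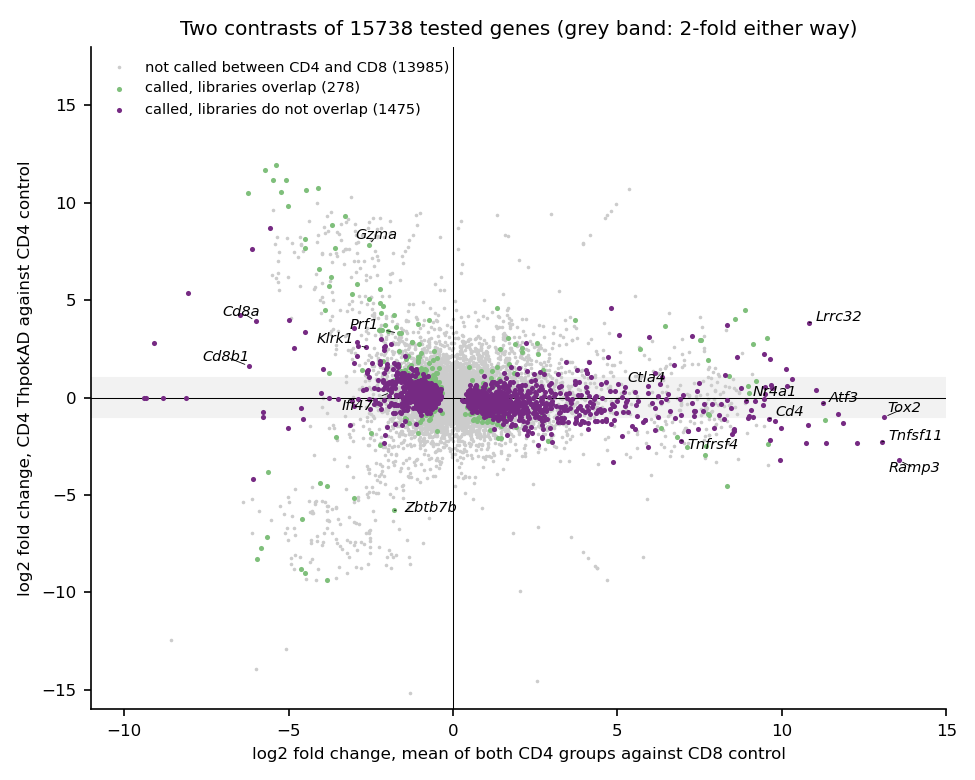
Each point is 1 of 15738 tested genes, placed by its log2 fold change of both CD4 groups against CD8 control (x axis) and of CD4 ThpokAD against CD4 control (y axis); purple points are the 1475 called genes whose libraries do not overlap. Purple points extend to a log2 fold change of 13.56 on the right (Ramp3), while Zbtb7b, Gzma and Prf1, which are called but overlap (green), lie outside the grey band that marks a 2-fold difference between the CD4 groups.

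Most genes of the helper lineage were higher in both CD4 groups than in CD8 cells by wide margins, with lower levels in ThpokAD. Their summed level was 6115 to 7226 CPM in CD4 control, 2916 to 3426 CPM in CD4 ThpokAD and 733 to 850 CPM in CD8 control. Between the CD4 groups 6 were called lower in ThpokAD, not all in every fit that left out 1 library. The median log2 fold change of ThpokAD against CD4 control was -1.42. Of 12 such genes tested, 10 were called higher and 1, Zbtb7b itself, lower on the log scale, with a median log2 fold change of 3.71 against -0.02 over all tested genes, and 9 had no overlap. Cd4 (chr6:124864692-124888221, mouse build GRCm38, mm10), the coreceptor for MHC class II, measured 1359, 1409 and 1295 CPM in CD4 control, 679, 675 and 551 CPM in CD4 ThpokAD and 2.26, 1.36 and 0.222 CPM in CD8 control. Every CD4 library was thus far above every CD8 library, and the combined log2 fold change was 9.61 (SE 0.61, adjusted p = 2.87e-05). CD40 ligand (Cd40lg), through which helper cells license B cells and dendritic cells, stood at 347, 406 and 432 CPM in CD4 control, 114, 148 and 119.5 CPM in CD4 ThpokAD and 4.26, 0.339 and 9.32 CPM in CD8 control. For Cd40lg the log2 fold change was 5.54 (SE 0.75, adjusted p = 0.00188). The ThpokAD libraries lay below the CD4 controls and far above the CD8 libraries, and the difference between the CD4 groups did not pass the test (log2 fold change -1.63, 95% interval -3.08 to -0.18, adjusted p = 0.254). RANK ligand (Tnfsf11), a TNF family cytokine that acts on dendritic cells and bone, had no count in any CD8 library, 109, 106 and 108 CPM in CD4 control and 17.4, 25.5 and 23.7 CPM in CD4 ThpokAD. Against 3 counts summed over the CD8 libraries it was at least 1843-fold higher in the mean of both CD4 groups, a bound that covers counting error only. Tnfsf11 was called lower in ThpokAD than in CD4 control, in all 9 fits that left out 1 library (adjusted p up to 0.0182). Il21, the follicular helper cytokine, also had no count in CD8 cells, at 18.5, 65.8 and 17.5 CPM in CD4 control and 4.19, 10.4 and 5.57 CPM in CD4 ThpokAD. Il2 was low throughout, at 6.60 ± 2.42, 4.27 ± 3.29 and 0.470 ± 0.146 CPM in CD4 control, CD4 ThpokAD and CD8 control, and was called higher (log2 fold change 3.48, SE 0.66, adjusted p = 0.011). Gata3, which is needed for CD4 development, was the helper gene that was not called, at 129.7 ± 17.95, 147 ± 15.5 and 128 ± 23.0 CPM. Tnfrsf18 was called but its libraries overlapped, and it remained called in 3 of 9 fits that left out 1 library (adjusted p up to 0.105). Unless stated otherwise, each gene named as called here and below remained so in all 9 of those fits.

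**Figure D2:**
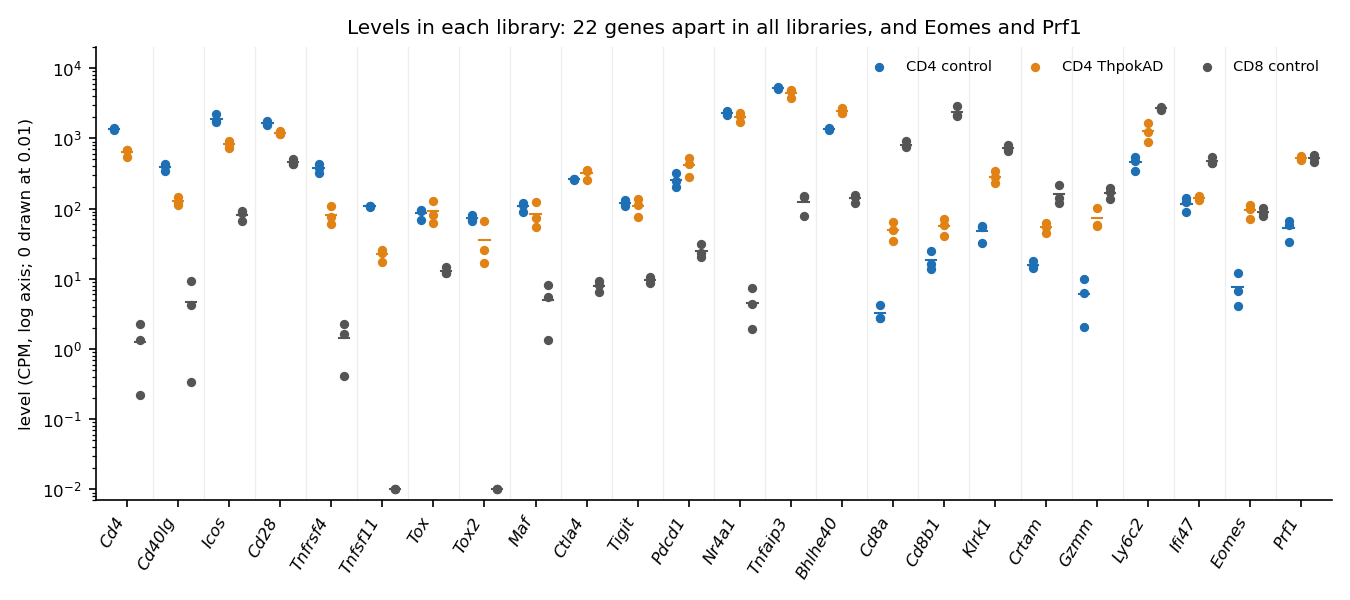
Points are the levels of 24 genes in each of the 9 libraries in CPM on a log axis (0 drawn at 0.01), with short lines for the means of the 3 libraries of CD4 control (blue), CD4 ThpokAD (orange) and CD8 control (grey). For the first 22 genes the 6 CD4 libraries lie on 1 side of the 3 CD8 libraries, whereas for Eomes and Prf1 the CD4 ThpokAD libraries overlap the CD8 libraries.

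Costimulatory and inhibitory receptors and TNF family genes followed the same direction. Of 32 tested, 17 were called higher and 1, the lymphotoxin gene Ltb, lower (2 without CD4 ThpokAD replicate 2), with a median log2 fold change of 1.46. Icos, a CD28 family receptor that supports follicular help, measured 1759, 2245 and 1685 CPM in CD4 control, 924, 833 and 719 CPM in CD4 ThpokAD and 92.3, 67.1 and 85.5 CPM in CD8 control. Both CD4 groups were above CD8 cells (log2 fold changes 4.54 and 3.34 for control and ThpokAD), and ThpokAD was below CD4 control (log2 fold change -1.20, SE 0.16, adjusted p = 0.00624). Cd28 itself, the main costimulatory receptor of naive T cells, was expressed in all 3 groups, at 1556, 1784 and 1596 CPM in CD4 control, 1137, 1255 and 1149.5 CPM in CD4 ThpokAD and 506, 433 and 427 CPM in CD8 control. It was 3.06-fold higher in CD4 cells (adjusted p = 2.09e-05). Ox40 (Tnfrsf4), whose locus drives Cre, stood at 326, 432 and 374 CPM in CD4 control, 76.2, 107 and 59.7 CPM in CD4 ThpokAD and 0.418, 2.28 and 1.63 CPM in CD8 control. It was 121-fold higher in the mean of the CD4 groups (adjusted p = 4.99e-05), and the lower level in ThpokAD than in CD4 control (adjusted p = 0.0201) passed the test in 4 of 9 fits that left out 1 library (adjusted p up to 0.0928, without CD4 ThpokAD replicate 1).

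The inhibitory receptors Ctla4, Tigit and Pdcd1 were higher in both CD4 groups than in CD8 cells. Ctla4, which competes with CD28 for its ligands, measured 258, 267 and 264 CPM in CD4 control, 359, 347 and 257 CPM in CD4 ThpokAD and 6.40, 9.35 and 8.14 CPM in CD8 control. Its log2 fold change against CD8 was 5.19 (SE 0.19, adjusted p = 1.68e-06) and that between the CD4 groups was 0.29, with a 95% interval of -0.09 to 0.66, which lies within 2-fold either way. Tigit, an inhibitory receptor for nectin-like ligands, was at 117, 132 and 109 CPM in CD4 control, 111, 139 and 75.7 CPM in CD4 ThpokAD and 9.78, 10.8 and 8.75 CPM in CD8 control. Between the CD4 groups its log2 fold change was -0.14 (95% interval -0.63 to 0.35). PD-1 (Pdcd1) was at 200.4, 317 and 244 CPM in CD4 control, 437, 529 and 282 CPM in CD4 ThpokAD and 23.2, 30.8 and 20.6 CPM in CD8 control. Pdcd1 was 13.1-fold higher in CD4 cells (adjusted p = 6.98e-05). Lag3 and Havcr2, inhibitory receptors also found on exhausted CD8 cells, were not called. Cd200 and its receptor Cd200r1 were both called higher, with log2 fold changes of 3.88 and 2.83.

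Most follicular helper genes were higher in both CD4 groups than in CD8 cells as well, with lower levels in ThpokAD. Of 22 tested, 15 were called higher and none lower, all 15 without overlap, with a median log2 fold change of 3.79, or 3.67 with genes that had no count in CD8 cells set to their lower bound. At an unadjusted p under 0.05, edgeR gave 1 lower gene, and DESeq2's Wald test also called 1 lower. The summed level of the list was 3864 to 4641 CPM in CD4 control, 1919 to 2848 CPM in CD4 ThpokAD and 763 to 913 CPM in CD8 control. Between the CD4 groups 4 genes were called lower in ThpokAD, with a median log2 fold change of -0.88 over the list. The interval between the CD4 groups lay within 2-fold for 1 of the 15. Tox2, an HMG box factor of follicular helper cells, had no count in CD8 cells, 66.5, 80.8 and 70.9 CPM in CD4 control and 25.7, 66.2 and 16.5 CPM in CD4 ThpokAD, and was at least 1545-fold higher. Angptl2, a secreted glycoprotein that marks follicular helper cells in transcript surveys, had no count in CD8 cells either, at 81.2, 60.2 and 54.2 CPM in CD4 control and 15.3, 10.99 and 12.6 CPM in CD4 ThpokAD. It was lower in ThpokAD than in CD4 control (log2 fold change -2.33, SE 0.26, adjusted p = 0.00634). Angptl2 overlaps Ralgps1, and reads without strand cannot be told apart between them. Bcl6, the master regulator of the follicular programme, was at 97.2, 137 and 78.3 CPM in CD4 control, 73.8, 85.6 and 39.5 CPM in CD4 ThpokAD and 20.2, 15.4 and 16.72 CPM in CD8 control. Bcl6 was 4.76-fold higher in CD4 cells (adjusted p = 0.00174). The follicle-homing receptor Cxcr5 measured 178, 248 and 258 CPM in CD4 control, 44.3, 143 and 33.3 CPM in CD4 ThpokAD and 19.2, 27.7 and 12.2 CPM in CD8 control. ThpokAD replicate 2 stood apart from the other two there, as it did for Tox2, and the Cxcr5 call (adjusted p = 0.011) was lost without CD8 control replicate 3 (adjusted p = 0.0543). Izumo1r, the folate receptor family protein of follicular and regulatory cells, was at 126, 149 and 185 CPM in CD4 control, 101, 109 and 71.1 CPM in CD4 ThpokAD and 1.92, 0 and 0.345 CPM in CD8 control. For Izumo1r the log2 fold change was 7.33 (SE 0.81, adjusted p = 0.000634). The IL-6 receptor chains Il6ra and Il6st were called higher too, with log2 fold changes of 2.71 and 2.37. Sh2d1a, Slamf6, Ly9 and Btla, which CD8 cells also carry, were not called.

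The largest fitted log2 fold change of all tested genes belonged to Ramp3, the receptor activity modifying protein that pairs with receptors for calcitonin family peptides, in none of the lists. It had no count in CD8 cells, 288, 172 and 186 CPM in CD4 control and 24.8, 28.5 and 15.4 CPM in CD4 ThpokAD, and was at least 3379-fold higher. ThpokAD cells held less of it than CD4 controls (log2 fold change -3.23, SE 0.32, adjusted p = 0.00403). Areg, the epidermal growth factor family ligand amphiregulin, and Ptgs2, the inducible cyclooxygenase, also had no count in CD8 cells. Areg stood at 25.5, 47.7 and 29.7 CPM in CD4 control and 10.98, 21.6 and 8.91 CPM in CD4 ThpokAD, and Ptgs2 at 3.54, 19.3 and 9.09 CPM in CD4 control and 12.2, 7.49 and 22.3 CPM in CD4 ThpokAD. The CD4 groups overlapped for Ptgs2 and did not for Areg, which was at least 683-fold higher than in CD8 cells against 349.7-fold for Ptgs2.

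Transcription factors had members on both sides, more of them higher. Of 42 tested lineage and memory factors, 15 were called higher, 3 lower (5 without CD4 control replicate 3) and 24 were not called, with a median log2 fold change of 0.32. DESeq2's Wald test called 17 higher and 4 lower, and CD4 control alone against CD8 control gave 16 and 6 in edgeR. Tox, a factor required for CD4 lineage development, measured 69.0, 93.2 and 93.9 CPM in CD4 control, 81.1, 129 and 62.6 CPM in CD4 ThpokAD and 12.1, 12.2 and 14.7 CPM in CD8 control. It was 6.77-fold higher in CD4 cells (adjusted p = 0.000296), and the CD4 groups overlapped (log2 fold change 0.09, 95% interval -0.51 to 0.69). Maf, which drives Il21 and Il10, was at 88.8, 122 and 113 CPM in CD4 control, 73.9, 124 and 54.6 CPM in CD4 ThpokAD and 5.48, 8.28 and 1.33 CPM in CD8 control. For Maf the log2 fold change was 4.27 (SE 0.59, adjusted p = 0.00212). Myb, a proto-oncogene that acts early in CD4 commitment, stood at 50.9, 81.8 and 58.7 CPM in CD4 control, 49.3, 55.7 and 36.8 CPM in CD4 ThpokAD and 2.76, 0.0484 and 2.74 CPM in CD8 control. For Myb the log2 fold change was 4.85 (SE 0.77, adjusted p = 0.00463). Bhlhe40, a stress-responsive repressor that promotes T cell cytokine output, was higher still in ThpokAD, with 1374, 1424 and 1296 CPM in CD4 control, 2282, 2309 and 2669 CPM in CD4 ThpokAD and 144, 121 and 154 CPM in CD8 control. The CD4 groups differed (log2 fold change 0.83, SE 0.11, adjusted p = 0.00641). Nfil3, Rora, Batf, Foxo1 and Ets1 were called higher with log2 fold changes of 2.91, 1.79, 1.02, 0.67 and 0.46. Id2, the inhibitor of E proteins that favours effector cells, was the member on the lower side, at 312, 369 and 300.4 CPM in CD4 control, 833, 761 and 776 CPM in CD4 ThpokAD and 1314, 1271 and 1678 CPM in CD8 control. ThpokAD stood between the other groups (log2 fold change against CD4 control 1.27, SE 0.13, adjusted p = 0.00169). Runx3, the Runt factor of the CD8 lineage, was not called (197 ± 17.7, 315 ± 26.1 and 265 ± 73.2 CPM, adjusted p = 0.804), nor were Tcf7, Lef1, Satb1, Klf2 and Tbx21. For Tcf7 and Satb1 the CD4 groups lay on opposite sides of the CD8 libraries, with ThpokAD lower (log2 fold changes -1.21 and -1.17). Lef1 and Tbx21 were called between the CD4 groups, in 0 and 6 of 9 fits that left out 1 library. Of the 42 factors, 7 were called higher and 4 lower in ThpokAD than in CD4 control.

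Immediate early genes, which T cells and most other cells transcribe within minutes of receptor signals, growth factors or stress, held more called CD4-higher members than any other list. Of 49 tested, 42 were called higher, 1 lower and 6 not, with a median log2 fold change of 3.02, and 43 were higher without overlap, called or not. The count of 42 was 42 or 43 with any 1 library left out. The summed level of the list was 33381 to 37355 CPM in CD4 control, 25727 to 31516 CPM in CD4 ThpokAD and 5163 to 6027 CPM in CD8 control. ThpokAD was thus below CD4 control as a sum, with a median log2 fold change of -0.28 between them. Of the list, 2 were called higher and 5 lower in ThpokAD than in CD4 control. Nr4a1 (chr15:101254269-101274795), an orphan nuclear receptor induced by antigen receptor signals, measured 2117, 2434 and 2358 CPM in CD4 control, 1689.9, 2113 and 2317 CPM in CD4 ThpokAD and 1.92, 7.36 and 4.41 CPM in CD8 control. The groups of CD4 libraries overlapped each other and both stood far above CD8 cells, with log2 fold changes of 8.99 and 8.81. Its relative Nr4a2 stood at 700.3, 823 and 658 CPM in CD4 control, 597, 712 and 445 CPM in CD4 ThpokAD and 2.34, 3.05 and 1.70 CPM in CD8 control. For Nr4a2 the log2 fold change was 8.13 (SE 0.29, adjusted p = 1.36e-06). Atf3, a stress-induced bZIP factor, had 2 counts over the CD8 libraries and 68.2, 88.2 and 76.6 CPM in CD4 control and 58.9, 70.005 and 59.5 CPM in CD4 ThpokAD, a ratio of 2989 with a counting interval of 827 to 24680.4.

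The AP-1 and Egr genes showed the same direction with smaller or less even differences. Fos was at 301, 323 and 269 CPM in CD4 control, 161, 182 and 187 CPM in CD4 ThpokAD and 15.2, 21.5 and 35.5 CPM in CD8 control. Fos was 9.48-fold higher in CD4 cells (adjusted p = 0.000127). Junb, the most abundant of them, was at 3859, 4179.6 and 5642 CPM in CD4 control, 2506, 3849 and 3607 CPM in CD4 ThpokAD and 346, 538 and 457 CPM in CD8 control. For Junb the log2 fold change was 3.12 (SE 0.22, adjusted p = 5.44e-05). Egr1 was at 188, 249 and 238 CPM in CD4 control, 93.0, 140.0 and 157 CPM in CD4 ThpokAD and 2.09, 1.79 and 11.9 CPM in CD8 control. For Egr1 the log2 fold change was 4.97 (SE 0.67, adjusted p = 0.00197). For Fos, Junb and Egr1 every ThpokAD library lay below every CD4 control library, although these differences were not called. The factor Irf4, which scales with the strength of receptor signals, was level between the CD4 groups, at 135, 121 and 124 CPM in CD4 control, 115, 121 and 158 CPM in CD4 ThpokAD and 5.48, 4.12 and 1.58 CPM in CD8 control. The log2 fold change between the CD4 groups was 0.05 (95% interval -0.73 to 0.83).

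Inhibitors of signalling were also among the immediate early and stress response genes. Tnfaip3, which encodes the NF-kB inhibitor A20, was abundant in the CD4 cells, at 5113, 5204 and 5337 CPM in CD4 control, 3739, 4657 and 4956 CPM in CD4 ThpokAD and 78.6, 150.2 and 146 CPM in CD8 control. It was 38.5-fold higher than in CD8 cells (adjusted p = 7.44e-06), and the interval between the CD4 groups was -0.73 to 0.27 on the log2 scale. Nfkbia, which encodes the NF-kB inhibitor IkBa, was at 1543, 1714 and 1810.0 CPM in CD4 control, 1352, 1318 and 1771 CPM in CD4 ThpokAD and 280.3, 206 and 257 CPM in CD8 control. For Nfkbia the log2 fold change was 2.67 (SE 0.15). The kinase phosphatase gene Dusp1 measured 868, 1051 and 999 CPM in CD4 control, 763, 1128 and 1032 CPM in CD4 ThpokAD and 32.4, 68.3 and 45.0 CPM in CD8 control. Its log2 fold change between the CD4 groups was 0.00 (95% interval -0.57 to 0.57). Dusp4, Dusp5, Dusp6 and Dusp10 and the G protein regulators Rgs1, Rgs2 and Rgs16 were called higher as well, with log2 fold changes of 2.41 to 7.01. Cd69, the early activation lectin that holds cells in tissue, was at 1356, 1695 and 1770.0 CPM in CD4 control, 783, 918 and 1045 CPM in CD4 ThpokAD and 129, 150.4 and 110.5 CPM in CD8 control. Cd69 was called lower in ThpokAD than in CD4 control, in 3 of 9 fits that left out 1 library (adjusted p up to 0.121). The heat shock gene Hspa1a was 6.90-fold higher (adjusted p = 0.00766), with its near-identical copy Hspa1b not called, and reads may be split between the pair. Ier3 was the exception on the lower side, at 23.1, 16.75 and 10.02 CPM in CD4 control, 18.01, 40.9 and 31.5 CPM in CD4 ThpokAD and 62.8, 95.1 and 85.1 CPM in CD8 control. Ier5, Zfp36, Myc, Dnajb1 and Spry2 were not called.

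Promoter stretches are shown for 4 of these genes because they are called members whose 250 bases before the start hold a match to a motif of a signal-dependent factor: TGACGTCA, the cyclic AMP response element (CRE), in Dusp1 and Btg2, and an NF-kB motif, GGG and TTTCC with any 2 bases between them, in Nfkbia and Tnfaip3. Btg2 encodes an antiproliferative factor and stood at 1659.8, 1778 and 1532 CPM in CD4 control, 1031, 1188 and 1186 CPM in CD4 ThpokAD and 357, 325 and 420.5 CPM in CD8 control. The sequences are from RefSeq on GRCm38.p6, read 5′ to 3′ on the gene's strand, at chr17:26508567-26508656 (Dusp1), chr1:134079273-134079362 (Btg2), chr12:55492648-55492737 (Nfkbia) and chr10:19015411-19015500 (Tnfaip3), all on the minus strand. Each is 90 bases long and ends 1 to 118 bases before the annotated start, and capitals mark the motif on either strand.
Dusp1: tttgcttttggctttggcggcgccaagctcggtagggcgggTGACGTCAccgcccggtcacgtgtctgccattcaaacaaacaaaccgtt
Btg2: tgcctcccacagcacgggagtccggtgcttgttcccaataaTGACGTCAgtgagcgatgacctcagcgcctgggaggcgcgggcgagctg
Nfkbia: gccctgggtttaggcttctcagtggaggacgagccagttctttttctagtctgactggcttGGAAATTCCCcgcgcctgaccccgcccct
Tnfaip3: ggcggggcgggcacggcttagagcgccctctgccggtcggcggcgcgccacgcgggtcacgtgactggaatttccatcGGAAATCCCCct
The motifs searched on both strands of the 250 bases before each start were TGACGTCA, TGANTCA for AP-1, the NF-kB motif, the CArG box, the interferon-stimulated response element and TGTGGT for Runx. Among 32851 such windows in the RefSeq table they occurred in 1.55%, 6.75%, 1.41%, 1.47%, 2.98% and 14.05% respectively. Windows were found for 31 of the 42 called CD4-higher genes of the list (73.8%), too few to compare its share with all promoters. The CRE was in 4 of the 31 genes and the AP-1 and NF-kB motifs in 3 each. The CArG box, the interferon-stimulated response element and TGTGGT were in 2 each. These are counts of genes, which had 41 windows in all, whereas the percentages are of windows. A match describes letters in a window and not a bound site.

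**Figure D3:**
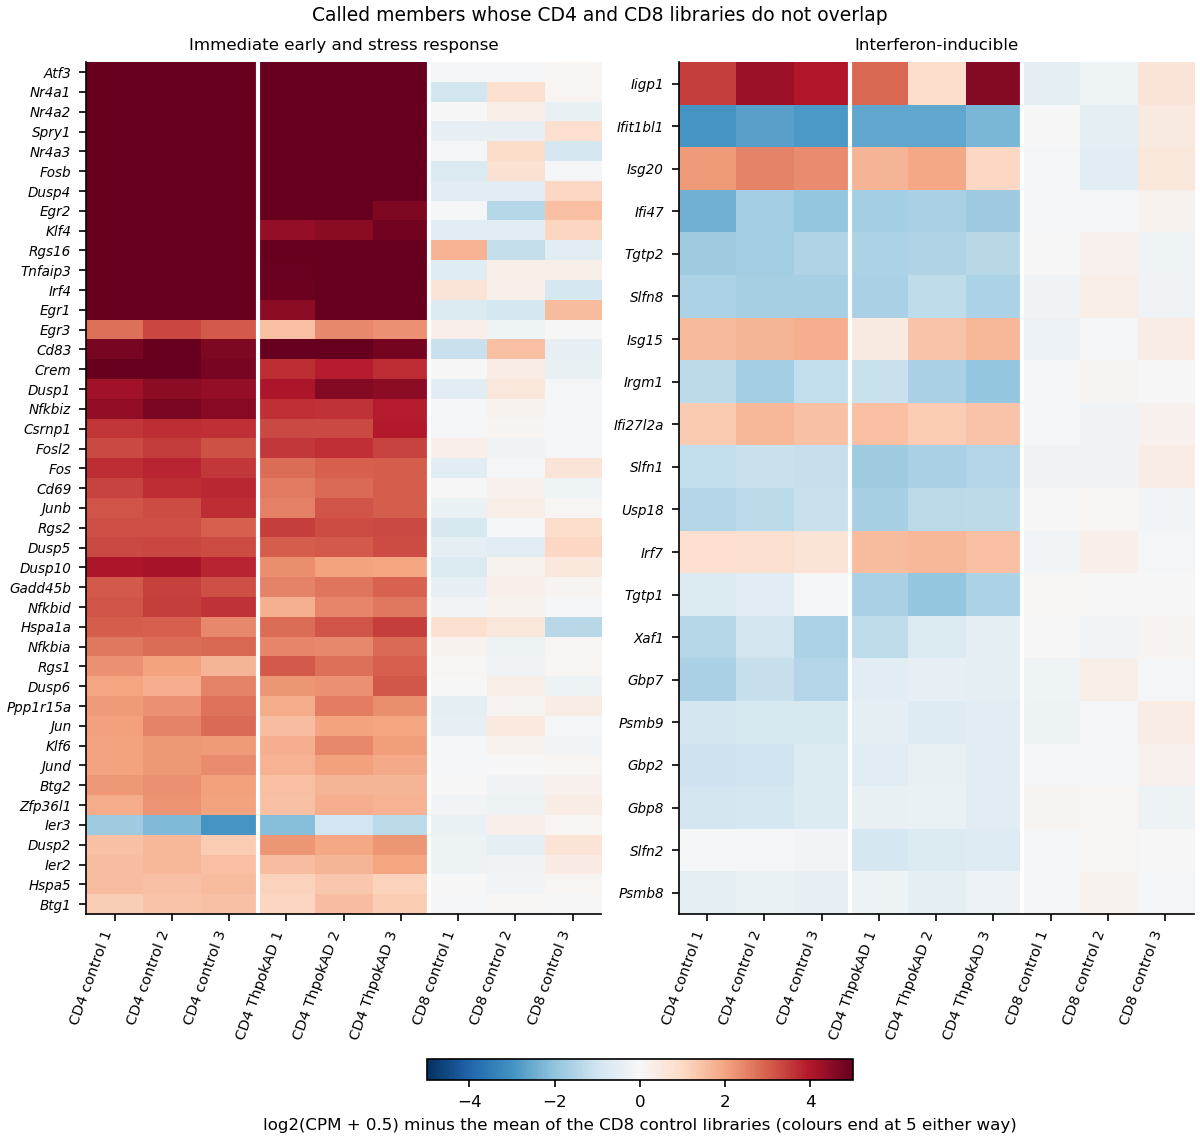
Colours give log2(CPM + 0.5) minus the mean of the CD8 control libraries for each called gene without overlap (43 immediate early and stress genes on the left, 20 interferon-inducible genes on the right) in the 9 libraries, with red for higher and blue for lower and colours ending at 5 either way. In the left panel 42 genes are red in all 6 CD4 libraries and Ier3 is blue; in the right panel 15 genes are blue or pale blue and 5 are red or pale red.

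Cytokine genes were mixed. Of 24 tested cytokines and chemokines, 10 were called higher and 3 lower, with a median log2 fold change of 1.48. Ifng, the type 1 effector cytokine made by both lineages, was higher in CD4 cells: 162, 229 and 257 CPM in CD4 control, 338, 459 and 518 CPM in CD4 ThpokAD and 82.4, 72.7 and 144 CPM in CD8 control. For Ifng the log2 fold change was 1.62 (SE 0.27, adjusted p = 0.00566). Il10, an anti-inflammatory cytokine, had no count in CD8 cells, 1.74, 1.66 and 2.21 CPM in CD4 control and 12.1, 10.9 and 3.34 CPM in CD4 ThpokAD. The CD4 groups did not overlap for Il10, and the difference between them did not pass the test (adjusted p = 0.15). Ltb, the membrane-bound lymphotoxin, was lower, at 532, 519 and 634 CPM in CD4 control, 347, 343 and 278 CPM in CD4 ThpokAD and 634, 749.6 and 679 CPM in CD8 control. CD8 control replicate 1 was level with the highest CD4 library to within 1 CPM. The chemokine Ccl5 was called lower although its libraries overlapped: ThpokAD, at 12394 ± 1489.9 CPM, stood with CD8 control, at 11136 ± 3613, and CD4 control at 1746 ± 158.

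Among 30 tested cytokine receptors 9 were called higher and 5 lower, with a median log2 fold change of 0.29. Ifngr1, the ligand-binding chain of the interferon gamma receptor, measured 1789, 1594 and 1336 CPM in CD4 control, 1631, 1711 and 1406 CPM in CD4 ThpokAD and 584, 562 and 585 CPM in CD8 control. The CD4 groups coincided (log2 fold change 0.01, 95% interval -0.27 to 0.29) and were 2.73-fold above CD8 cells (adjusted p = 9.10e-05). Ifnar1, a chain of the type I interferon receptor, was at 371, 328 and 349 CPM in CD4 control, 265, 388 and 294 CPM in CD4 ThpokAD and 185, 138 and 159 CPM in CD8 control. For Ifnar1 the log2 fold change was 1.05 (SE 0.15, adjusted p = 0.00275). Il21r and Il4ra, receptors of helper cytokines, were called higher with log2 fold changes of 1.52 and 1.53. Il10rb was a member on the lower side, at 53.9, 82.8 and 61.8 CPM in CD4 control, 64.5, 93.5 and 83.1 CPM in CD4 ThpokAD and 156, 145 and 147 CPM in CD8 control. For Il10rb the log2 fold change was -1.04 (adjusted p = 0.0042). The IL-7 receptor gene Il7r was called lower but was not a member: CD4 control (1308, 1041 and 976 CPM) and CD8 control (1227, 1243 and 1261 CPM) overlapped and ThpokAD (361, 306 and 278 CPM) stood below both.

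Genes of other helper subsets were mostly higher in CD4 cells. Of 16 tested Th2, Th17 and regulatory T cell genes, 10 were called higher and 0 lower (0 also at an unadjusted p under 0.05 in edgeR and 0 by DESeq2), with a median log2 fold change of 4.64. Higher without overlap were 8, and the count of 10 fell to 7 to 9 with any 1 library left out. Ccr4 and Ikzf2 each remained called in 2 of those 9 fits. Lrrc32, which encodes the latent TGF-beta docking protein GARP of regulatory cells, had no count in CD8 cells, 1.30, 3.14 and 3.90 CPM in CD4 control and 38.8, 39.1 and 42.4 CPM in CD4 ThpokAD, where it was higher (log2 fold change 3.84, SE 0.46, adjusted p = 0.00868). Ccr8, a chemokine receptor of Th2 and regulatory cells, was at 4.47, 10.5 and 6.99 CPM in CD4 control, 25.6, 21.4 and 22.1 CPM in CD4 ThpokAD and 0.376, 0 and 0 CPM in CD8 control. For Ccr8 the log2 fold change was 6.72 (SE 1.13, adjusted p = 0.00598). Foxp3, the regulatory lineage factor, was not a member, since CD4 control replicate 1 had no count, as had CD8 control replicate 2. It measured 0, 4.52 and 2.33 CPM in CD4 control, 50.1, 11.8 and 25.6 CPM in CD4 ThpokAD and 0.251, 0 and 0.0247 CPM in CD8 control. Its call remained in 3 of 9 fits that left out 1 library (adjusted p up to 0.115, without CD8 control replicate 3). Of the 21 Th1 genes tested, 3 were called higher (Bhlhe40, Ifng and Tnf, the last not without CD8 control replicate 1, adjusted p = 0.051) and 7 lower, with a median log2 fold change of -0.41. The summed Th1 level was 5297 to 6131, 9912 to 11320 and 9970 to 11224 CPM in CD4 control, CD4 ThpokAD and CD8 control. Between the CD4 groups 9 were called higher and 2 lower in ThpokAD, not all in every fit that left out 1 library.

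Receptors of migration and survival genes had members on both sides. Of 39 tested chemokine receptors, integrins and egress genes 11 were called higher and 7 lower (median log2 fold change 0.10), and the count of 11 fell to 6 without CD8 control replicate 2 or CD4 ThpokAD replicate 1, and to 7 without CD8 control replicate 1 or CD4 control replicate 2. Gpr183, the oxysterol receptor that guides cells to the follicle border, was at 755, 810.3 and 977 CPM in CD4 control, 484, 554 and 432 CPM in CD4 ThpokAD and 217, 200.5 and 234 CPM in CD8 control. Gpr183 was 2.97-fold higher in CD4 cells (adjusted p = 0.000102). Ccr7, a lymph node homing receptor, was higher in CD4 cells, at 357, 470.0 and 377 CPM in CD4 control, 252, 142 and 183 CPM in CD4 ThpokAD and 38.5, 53.1 and 76.5 CPM in CD8 control. Its log2 fold change was 2.31 (adjusted p = 0.000893). Of 30 tested memory and survival genes 11 were called higher and 5 lower (median 0.21), and the 5 became 3 without any 1 of CD4 control replicates 2 and 3, CD4 ThpokAD replicate 1 and CD8 control replicates 1 and 3. The BH3-only genes Bcl2l11 and Pmaip1, which promote cell death, were both higher (log2 fold changes 1.68 and 1.39). Socs3, a feedback inhibitor of cytokine receptors, was at 569, 566 and 619 CPM in CD4 control, 220.4, 284 and 235 CPM in CD4 ThpokAD and 37.6, 44.6 and 42.1 CPM in CD8 control. It was lower in ThpokAD than in CD4 control (log2 fold change -1.25, SE 0.13, adjusted p = 0.00145). Ly6c2, a glycoprotein of memory and effector cells, was lower in CD4 cells, at 549, 477 and 343 CPM in CD4 control, 1246, 887 and 1646 CPM in CD4 ThpokAD and 2647, 2555 and 2797 CPM in CD8 control. For Ly6c2 the log2 fold change was -1.81 (adjusted p = 0.000471).

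**Figure D4:**
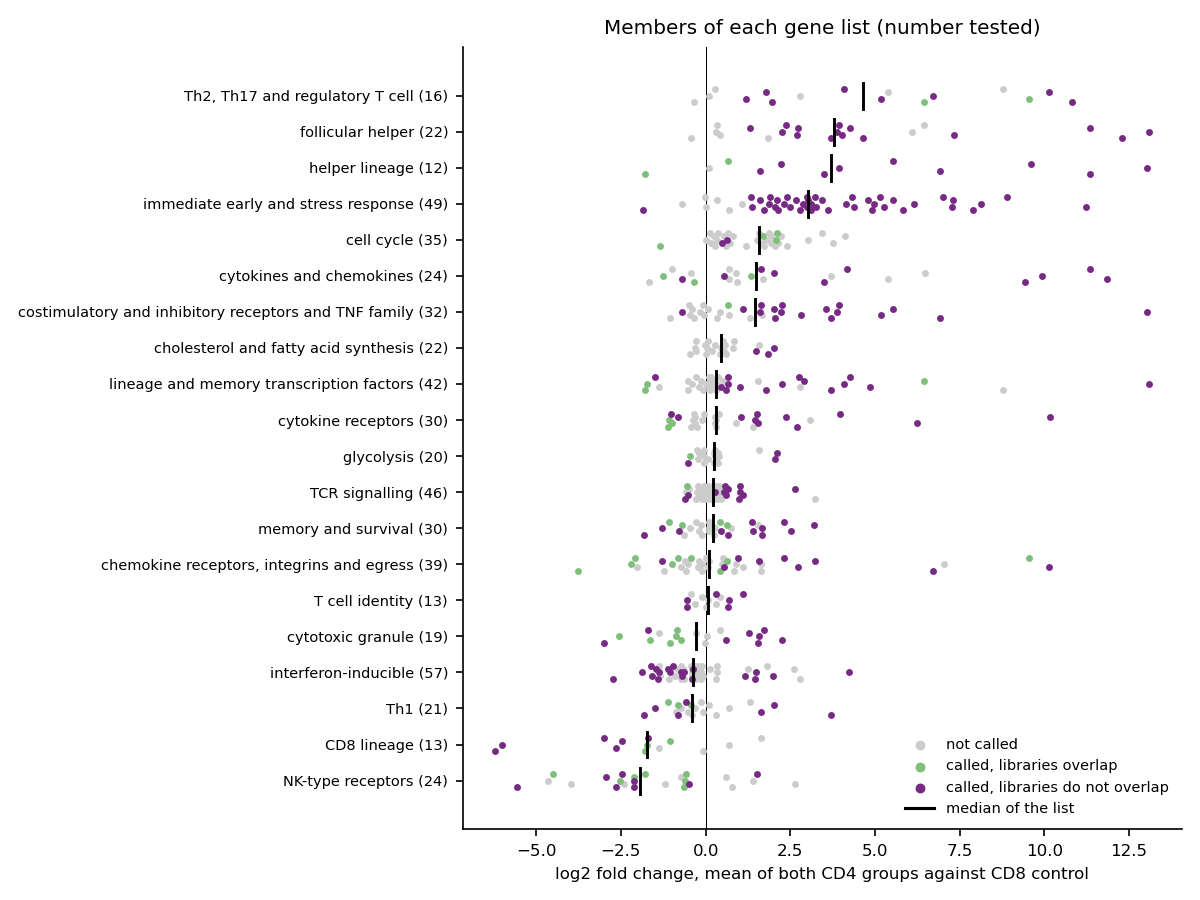
Each point is a tested gene of a list, placed by its log2 fold change of both CD4 groups against CD8 control, with called genes in green (libraries overlap) or purple (no overlap) and a black line at the median of the list. Medians run from 4.64 for Th2, Th17 and regulatory T cell genes to -1.94 for NK-type receptors, and 42 of 49 immediate early genes are called on the right.

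Both CD8 coreceptor chains were on the lower side. Cd8a (chr6:71373427-71379173) measured 2.80, 2.74 and 4.195 CPM in CD4 control, 64.5, 50.1 and 34.2 CPM in CD4 ThpokAD and 743, 785 and 913 CPM in CD8 control. No libraries of the 3 groups overlapped, so ThpokAD stood above CD4 control (log2 fold change 3.93, SE 0.28, adjusted p = 0.000286) and still below CD8 cells (log2 fold change -4.04, adjusted p = 4.67e-05). Cd8b1 was at 16.2, 25.1 and 13.6 CPM in CD4 control, 58.4, 40.7 and 70.2 CPM in CD4 ThpokAD and 2086, 2129.7 and 2919.6 CPM in CD8 control. Cd8b1 was 74.0-fold lower in CD4 cells (adjusted p = 1.97e-06). Of 13 tested CD8 lineage genes 9 were called lower and 0 higher (0 also at an unadjusted p under 0.05 in edgeR and 0 by DESeq2), with a median log2 fold change of -1.74, and 6 of the 9 were members. Those 6 were Cd8a, Cd8b1, Crtam, Klrk1, Gzmm and Ctsw. Against CD8 control alone, 10 of the list were called lower in CD4 control, and 5 lower and 2 higher in ThpokAD. Between the CD4 groups 12 of the 13 were called higher in ThpokAD, not all in every fit that left out 1 library. The median log2 fold change of ThpokAD against CD4 control was 3.58. The summed level was 1060 to 1302, 4081 to 4381 and 7919 to 9101 CPM in CD4 control, CD4 ThpokAD and CD8 control. Crtam, a nectin-like adhesion receptor of cytotoxic cells, was at 15.1, 17.8 and 14.3 CPM in CD4 control, 54.0, 45.5 and 63.0 CPM in CD4 ThpokAD and 143, 219 and 121 CPM in CD8 control. Granzyme M (Gzmm) was at 9.94, 6.23 and 2.04 CPM in CD4 control, 58.1, 56.5 and 102 CPM in CD4 ThpokAD and 172, 139 and 197 CPM in CD8 control. On its own ThpokAD did not differ from CD8 beyond the test's threshold (log2 fold change -1.23, adjusted p = 0.158).

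The cytotoxic gene Prf1 and the factor Eomes were outside the set, with ThpokAD libraries that overlapped the CD8 libraries. Perforin (Prf1) was at 59.2, 66.7 and 33.7 CPM in CD4 control, 496, 508 and 561 CPM in CD4 ThpokAD and 454, 531 and 582 CPM in CD8 control. The T-box factor Eomes, which drives cytotoxic and memory genes in CD8 cells, was at 6.71, 11.9 and 4.14 CPM in CD4 control, 70.4, 113 and 98.3 CPM in CD4 ThpokAD and 87.1, 79.4 and 102 CPM in CD8 control. Its log2 fold changes against CD8 were -3.56 for CD4 control (adjusted p = 0.00044) and 0.07 for ThpokAD (adjusted p = 0.948). Nkg7, a granule protein, came close to the rule: its highest CD4 library, ThpokAD replicate 3 at 2670.3 CPM, was level with its lowest CD8 library at 2670.1 CPM. Of 19 tested granule genes 8 were called lower and 6 higher in the mean of both CD4 groups, with a median log2 fold change of -0.28. Those 6, all members, were Fasl, the ligand of the death receptor Fas, the granzyme inhibitors Serpinb9 and Serpinb6b, the granule proteoglycan gene Srgn, and Stx11 and Rab27a of granule release. Fasl was at 440.4, 365 and 324 CPM in CD4 control, 853, 970.3 and 1061 CPM in CD4 ThpokAD and 123, 114 and 144 CPM in CD8 control. Its log2 fold change was 2.25 (SE 0.14, adjusted p = 2.87e-05) against CD8 and 1.35 between the CD4 groups (adjusted p = 0.00241). Serpinb6b was at 173, 145 and 139.8 CPM in CD4 control, 397, 350.0 and 364 CPM in CD4 ThpokAD and 74.8, 90.5 and 76.9 CPM in CD8 control. The Rab27a call was lost without CD8 control replicate 1 or 2 (adjusted p = 0.0666 and 0.0507). The 8 lower calls did not describe both CD4 groups, and 2 granule genes were lower without overlap. Against CD8 control alone, 9 were called lower in CD4 control, and 1 lower and 7 higher in ThpokAD. Between the CD4 groups 11 were called higher in ThpokAD, not all in every fit that left out 1 library. The summed level was 4008 to 4753, 10059 to 11072 and 7601 to 8359 CPM in CD4 control, CD4 ThpokAD and CD8 control.

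Receptors shared with NK cells were mostly lower in CD4 control than in CD8 cells, with fewer calls in ThpokAD. Of 24 tested, 14 were called lower in the mean of both CD4 groups and 1, the adaptor Fcer1g, higher. The median log2 fold change was -1.94, and 7 were lower without overlap. The 14 became 9 without CD4 ThpokAD replicate 2 or CD8 control replicate 3, and the Fcer1g call was lost without CD8 control replicate 1 or 2 (adjusted p = 0.0575 and 0.0668). Against CD8 control alone, 16 were called lower in CD4 control and 2 in ThpokAD. Between the CD4 groups 14 of the 24 were called higher in ThpokAD, not all in every fit that left out 1 library. The summed level was 638 to 788, 2441 to 2765 and 2774 to 3425 CPM in CD4 control, CD4 ThpokAD and CD8 control. Klrk1, which encodes the stress ligand receptor NKG2D, measured 55.9, 32.1 and 54.0 CPM in CD4 control, 282, 338 and 228 CPM in CD4 ThpokAD and 706, 661 and 814 CPM in CD8 control. The 3 groups did not overlap, and ThpokAD stood 5.97-fold above CD4 control (adjusted p = 0.000909) and below CD8 cells (log2 fold change -1.36, adjusted p = 0.0087). Klrd1, which encodes CD94, was at 46.0, 27.8 and 22.1 CPM in CD4 control, 155, 148 and 219 CPM in CD4 ThpokAD and 294, 252 and 414 CPM in CD8 control. Klrg1, an inhibitory lectin of terminal effector cells, was not a member, at 11.6, 9.66 and 6.06 CPM in CD4 control, 197, 208 and 299 CPM in CD4 ThpokAD and 163, 177 and 265 CPM in CD8 control. Genes of the Klra family were at or below 11.1 CPM in every library, and reads may be split among its near-identical members.

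A block of interferon-inducible genes was lower in CD4 cells; this list was drawn up after some of its genes had been seen among those the naming rule gave. Of 57 tested, 15 were called lower, 5 higher and 37 not, with a median log2 fold change of -0.39. Ifit1bl1, an interferon-induced tetratricopeptide repeat gene, measured 20.7, 24.2 and 21.6 CPM in CD4 control, 26.5, 26.5 and 33.0 CPM in CD4 ThpokAD and 165, 116 and 223 CPM in CD8 control. It was 6.66-fold lower in CD4 cells (adjusted p = 4.92e-05), and the interval between the CD4 groups was -0.16 to 0.90 on the log2 scale. The immunity-related GTPase genes Ifi47 and Tgtp2 lie side by side near Olfr56, which overlaps both. Ifi47 was at 88.8, 142 and 123 CPM in CD4 control, 144, 153 and 134 CPM in CD4 ThpokAD and 444, 451 and 535 CPM in CD8 control. For Ifi47 the log2 fold change was -1.87 (SE 0.14, adjusted p = 7.79e-05). Tgtp2 was at 35.2, 35.3 and 41.6 CPM in CD4 control, 39.96, 41.8 and 45.7 CPM in CD4 ThpokAD and 123, 139 and 102 CPM in CD8 control. For Tgtp2 the log2 fold change was -1.61 (SE 0.13, adjusted p = 0.000122), and its near-identical copy Tgtp1 can share its reads. Tgtp1 missed the threshold when replicate 2 of CD4 control (adjusted p = 0.0521), or replicate 1 or 2 of CD8 control (0.0679 and 0.0577), was left out. Slfn8, a Schlafen gene, stood at 58.1, 54.6 and 53.8 CPM in CD4 control, 56.2, 71.3 and 57.1 CPM in CD4 ThpokAD and 155, 216 and 155 CPM in CD8 control. Usp18, the protease that removes ISG15, was at 41.8, 45.3 and 54.1 CPM in CD4 control, 37.0, 45.2 and 47.3 CPM in CD4 ThpokAD and 120.2, 126 and 106 CPM in CD8 control. Gbp7, a guanylate-binding protein gene, was at 102, 143 and 114 CPM in CD4 control, 214, 239.5 and 224 CPM in CD4 ThpokAD and 271, 386 and 303 CPM in CD8 control. ThpokAD thus stood between the other groups. The list did not move as one: Irf7, the regulator of type I interferon genes, was higher in CD4 cells, at 296, 287 and 259 CPM in CD4 control, 494, 517 and 466 CPM in CD4 ThpokAD and 148, 192 and 153 CPM in CD8 control. For Irf7 the log2 fold change was 1.18 (SE 0.11, adjusted p = 0.00031). Ifi27l2a and Isg20 were called higher too, as were Isg15 and Iigp1, whose calls were lost without CD8 control replicate 1 or 2 (adjusted p = 0.0593 and 0.0584 for Isg15, and 0.0774 and 0.0777 for Iigp1). The classical genes Ifit1, Ifit3, Mx1, Oas3, Rsad2 and Irf9 were not called.

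Promoter stretches of 4 lower genes are shown because each holds the core of the interferon-stimulated response element, GAAA repeated with any 2 bases between, which 2.98% of all windows of 250 bases hold. Of the 15 called and non-overlapping lower genes of the list, 13 had at least 1 window, with 15 windows in all. Of these 13 genes, 7 held it (Gbp2, Gbp7, Ifit1bl1, Irgm1, Slfn8, Tgtp1 and Tgtp2). Since interferon induction put these genes on the list, the share describes the list. The stretches are at chr19:34602023-34602112 (Ifit1bl1), chr11:83020811-83020900 (Slfn8) and chr11:49064233-49064322 (Tgtp2) on the minus strand and chr3:142530243-142530332 (Gbp7) on the plus strand of GRCm38.p6, from RefSeq, 5′ to 3′ on the gene's strand, with the element in capitals on either strand.
Ifit1bl1: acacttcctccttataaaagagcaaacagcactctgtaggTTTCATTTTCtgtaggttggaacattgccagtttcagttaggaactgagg
Slfn8: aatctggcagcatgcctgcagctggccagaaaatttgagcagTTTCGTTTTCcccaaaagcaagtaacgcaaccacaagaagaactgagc
Tgtp2: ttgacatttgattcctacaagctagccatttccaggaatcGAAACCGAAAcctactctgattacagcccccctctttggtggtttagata
Gbp7: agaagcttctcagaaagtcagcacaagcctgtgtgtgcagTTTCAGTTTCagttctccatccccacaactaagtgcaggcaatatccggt

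The remaining large differences on the lower side were of varied function. Adgrg5, an adhesion G protein-coupled receptor, was at 0, 3.37 and 1.69 CPM in CD4 control, 17.8, 21.5 and 12.7 CPM in CD4 ThpokAD and 127, 145 and 101 CPM in CD8 control. For Adgrg5 the log2 fold change was -4.51 (SE 0.59, adjusted p = 0.0017). Amica1, which encodes the junctional adhesion molecule-like protein of leukocytes, was at 4.60, 4.92 and 5.77 CPM in CD4 control, 29.2, 23.6 and 14.4 CPM in CD4 ThpokAD and 55.4, 81.0 and 108 CPM in CD8 control. Lower genes whose interval between the CD4 groups lay within 2-fold included Lcn4 (lipocalin 4), the uncharacterised gene AI467606, the checkpoint clamp gene Rad1, the thromboxane receptor gene Tbxa2r and the kinase phosphatase gene Dusp7, with log2 fold changes of -2.28, -2.07, -1.74, -1.72 and -1.60. Rad1 was at 18.4, 13.1 and 18.7 CPM in CD4 control, 15.4, 9.57 and 13.2 CPM in CD4 ThpokAD and 45.7, 55.6 and 45.3 CPM in CD8 control. Dusp7 was at 35.6, 40.8 and 34.7 CPM in CD4 control, 29.6, 38.7 and 52.5 CPM in CD4 ThpokAD and 125, 101 and 125 CPM in CD8 control, so that in both the CD4 groups overlapped. Alkbh7 and Trp53rka met the same condition, and the Trp53rka call was lost without CD8 control replicate 1 (adjusted p = 0.0504). Of the 12 largest lower genes of the naming rule, 6 lost their call in at least 1 fit that left out a library: G0s2, Rnu3a, Snord13, Mrm2, Zfp760 and Samd3 (adjusted p up to 0.0981, 0.118, 0.136, 0.0848, 0.0649 and 0.0593, reached without CD8 control replicate 1 for Mrm2, replicate 2 for Zfp760 and replicate 3 for the others).

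Called genes were also found in lists of signalling, cell cycle and metabolism. Of 46 TCR signalling genes 10 were called higher and 3 lower, with a median log2 fold change of 0.21 and 33 not called, among them Lck and Zap70. Higher without overlap, called or not, were 16 of the 46, and DESeq2's Wald test called 18 higher. The store-operated calcium channel gene Orai1 was the largest of the 10, at 369, 456 and 409 CPM in CD4 control, 259, 274 and 256 CPM in CD4 ThpokAD and 57.0, 40.5 and 60.7 CPM in CD8 control. Orai1 was 6.23-fold higher in CD4 cells (adjusted p = 2.09e-05). Cd5, whose level tracks the strength of receptor signals, was 2.14-fold higher (adjusted p = 0.000521). Of 13 T cell identity genes 4 were called higher and 2 lower, with a median of 0.08, and the higher count was 2 without CD8 control replicate 1 or 2. Of 35 cell cycle genes 5 were called higher and 1 lower, with a median of 1.59, and DESeq2's Wald test called 14 higher. Against CD8 control alone 14 were called higher in ThpokAD and 1 in CD4 control, and 10 were called higher in ThpokAD than in CD4 control. Mki67, a proliferation marker, was at 32.6 ± 12.1 CPM in CD4 control, 228 ± 63.2 in CD4 ThpokAD and 10.6 ± 15.7 in CD8 control, where replicate 1 alone reached 28.6 CPM. The 5 became 10 without that library, 1 without CD8 control replicate 2, and 2 or 3 without CD8 control replicate 3, CD4 control replicate 1 or 3 or any 1 ThpokAD library. Of 20 glycolysis genes 2 were called higher and 2 lower, and the lower 2 became 0 or 1 without any 1 library. Of 22 genes of cholesterol and fatty acid synthesis 3 were called higher, Cyp51 and Insig1 among them. Cyp51, the lanosterol demethylase, was at 95.1, 84.0 and 81.9 CPM in CD4 control, 56.6, 50.5 and 48.5 CPM in CD4 ThpokAD and 10.3, 26.5 and 19.2 CPM in CD8 control.

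The last comparison asked how far the CD4 groups differed from each other over the members, with CD4 ThpokAD set against CD4 control, a contrast that does not use the CD8 libraries' level. The members were nevertheless chosen on the same CD4 libraries and on a call in the same fit, where contrasts share each gene's spread. A call favours genes of small spread, which by itself can raise the shares below. How far it did so was not tested. Of the 862 called members higher in CD4 cells, 13 were higher and 55 lower in ThpokAD than in CD4 control, and of the 613 lower members 45 were higher and 4 lower. These are 7.89% and 7.99% of the members, against 2.74% of all tested genes (1.81% higher and 0.928% lower). Among genes averaging 10 CPM or more, where more can pass the test, the shares were 9.15% and 8.67% against 4.26%. The calls were mostly toward the CD8 level, and the difference of these shares from the background was not tested. An interval wholly within 2-fold was found for 432 of 862 (50.1%) and 375 of 613 (61.2%), against 35% of all tested genes. Among genes averaging 10 CPM or more the shares were 59.5% and 67.7% against 60.2%, so the members' share on the higher side was near the background. For 20 of the 43 called immediate early members and 13 of the 20 called interferon-inducible members the interval lay within 2-fold, against 1 of 9 helper lineage members and none of 6 CD8 lineage members. The immediate early share, which includes the lower gene Ier3, was below the 50.1% of all called members higher in CD4 cells. The interferon-inducible share was near the 61.2% of the lower members, but it is taken over 15 lower and 5 higher members, an unlike set. The count of 375 was 200 to 240 without any 1 library other than CD4 ThpokAD replicate 3 (277) and CD8 control replicate 1 (252). Over all tested genes 285 were higher and 146 lower in ThpokAD than in CD4 control, and these counts were 131 to 171 and 50 to 63 without any 1 CD4 library, apart from 103 lower without CD4 ThpokAD replicate 2.

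The rule turns on the nearest libraries. Among members just inside it, Itpr2, a calcium release channel gene, had its lowest CD4 library at 158.34 CPM and its highest CD8 library at 158.24 CPM, and Tmem243 had 60.47 and 60.428 CPM. On the lower side, Ssbp1 had its highest CD4 library at 36.698 CPM and its lowest CD8 library at 36.707 CPM, and Bid 51.884 and 51.897 CPM. Just outside, the glycolysis gene Pkm had its lowest CD4 and highest CD8 libraries at 571.81 and 571.96 CPM and Cnppd1 at 174.96 and 175.04 CPM, while Dkc1 had its highest CD4 and lowest CD8 libraries at 117.24 and 117.23 CPM.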

How the data were processed

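Counts per gene were deposited by the authors for 9 libraries. Per the labels' protocols, RNA was purified on micro columns, cDNA was amplified with an ultra low input SMARTer kit, libraries were made with Nextera XT, which does not mark strand, and paired ends were read on a HiSeq2500. Per the submitters' processing notes, bcl2fastq 2.17, Trimmomatic, STAR, HTSeq, DESeq2 and mm10 were used; their roles, other versions, the annotation and the strand setting are not given in the sources used here. A second deposited table holds a scaled signal, the counts times 1 factor per library (largest relative deviation 8.95e-09), and was read only for that check.

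Of 48663 entries 26449 had a count, and 15738 passed edgeR's filterByExpr (minimum count 10, minimum total 15), with at least 99.78% of each library's counts. Names turned into dates (27, of which 20 tested, 0.243% of counts) were kept unnamed. All 9 libraries were fitted together by group with TMM scaling and edgeR 4.0.16's quasi-likelihood test (R 4.3.3, limma 3.58.1), adjusted by Benjamini-Hochberg over all tested genes at 0.05. SE and 95% intervals of log2 fold changes come from that fit. Levels are CPM, with SD over 3 libraries. Folds against 0 counts use 3 counts over the group. Script statistics were tested on simulated data.

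Members, lists and tests were chosen with earlier results of these data known, and the interferon list after its genes' values were seen. Named genes were the targeted and coreceptor genes, the 12 largest called and non-overlapping differences each way at 10 CPM or more, the 10 largest each way within 2-fold between CD4 groups, up to 6 each way called between them, up to 4 called genes per list by adjusted p, well-known genes of each list, and the genes nearest the rule's edge; other genes named were chosen after their values were seen. Coordinates are from GENCODE M21 (mm10), to which 15187 tested names (96.5%) matched, and promoters from RefSeq (GRCm38.p6). Alternatives were DESeq2 1.42.0's Wald test and size factors, no filter, bias-adjusted deviances, a replicate block, 1 pooled CD4 group and each library left out. Reads of overlapping genes cannot be told apart. Some genes of the lists are counted but not reported here by name.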

Additional observations from a re-analysis of the deposited data

Results flagged for a closer look

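For 8 of the genes reported here all CD4 control libraries lay on one side of the CD8 control libraries and all CD4 ThpokAD libraries on the other, so that the mean of both CD4 groups does not describe either. Each difference was tested by the contrast of CD4 ThpokAD with CD4 control in edgeR's quasi-likelihood fit. ThpokAD was higher for the granzyme genes Gzma (log2 fold change 7.83, adjusted p = 0.000286) and Gzmb (3.997, adjusted p = 0.000122), for the chemokine receptor gene Cx3cr1 (5.58, adjusted p = 3.35e-05), for the chemokine gene Xcl1 (4.38, adjusted p = 0.0135) and for the glucose transporter gene Slc2a3 (2.03, adjusted p = 0.000358). It was lower for Zbtb7b (-5.79, adjusted p = 3.35e-05), the targeted gene, and for Tcf7 (-1.21, adjusted p = 0.00468) and Satb1 (-1.17, adjusted p = 0.00778), nuclear factors of less differentiated T cells. The 8 genes were picked for that split, so its presence in all 3 libraries of each CD4 group restates the choice. Their p-values come from the same values and are not separate evidence. The share of all tested genes with such a split is not given here. With CD4 control replicate 1 left out, Xcl1 no longer passed (adjusted p = 0.0561), and the other 7 remained in all 9 fits that left out 1 library. Cx3cr1 overlaps Csrnp1, an immediate early gene, and the reads of the pair cannot be told apart.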

How the results depend on the processing

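For both CD4 groups against CD8 control, 969 genes were called higher and 784 lower. DESeq2's Wald test called 1773 and 1186, and 1660 and 1304 for CD4 control against CD8 control, 1415 and 750 for CD4 ThpokAD against CD8 control and 742 and 537 for CD4 ThpokAD against CD4 control. Bias-adjusted deviances gave 1108 higher and 530 lower for CD4 ThpokAD against CD8 control and 225 lower for CD4 ThpokAD against CD4 control. With 1 pooled CD4 group, 393 were called lower, 390 of them without overlap, and Zbtb7b, Gzma and Gzmb turned to 0.14, 0.37 and 0.35 (log2 fold change), none of the 3 passing the test; there 1 mean is fitted to all 6 CD4 libraries. With the replicate number as a replicate block, 183 were lower for CD4 ThpokAD against CD8 control and 86 for CD4 ThpokAD against CD4 control. Same-numbered libraries showed no strong common shift (correlations of -0.045 to 0.062). These correlations cannot decide whether equal numbers share a day or batch, which the labels do not give. The cause of the other changes was not tested. With each library left out in turn, both CD4 groups against CD8 control gave 704 to 863 higher and 432 to 629 lower (486, 436 and 432 without CD8 control replicates 1, 2 and 3), and without overlap 687 to 827 and 359 to 542. CD4 control against CD8 control gave 637 to 960 and 421 to 707, CD4 ThpokAD against CD8 control 438 to 586 and 143 to 222, and CD4 ThpokAD against CD4 control 131 to 281 and 50 to 196. Members within 2-fold between the CD4 groups numbered 292 to 405 and 200 to 277. Of 139 genes named by rule, 119 were called and 100 remained called without any 1 library. The median log2 fold change over all tested genes was -0.02, and 0.01 with DESeq2 size factors. Depth limits the genes at low levels: of 5515 genes whose interval between the CD4 groups lay within 2-fold, 5390 averaged at least 10 CPM.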
